A study of Mus musculus with 9 samples.

Results

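The genes described here mark the 2 ends of the liver lobule. They are 6 genes of the pericentral zone, around the central vein (Glul, Oat, Rhbg, Axin2, Lgr5 and Tbx3), and 4 genes of the periportal zone, where portal blood enters (Hal, Sds, Gls2 and Arg1). They were chosen by symbol. Of these 10 genes, 8 had a probe set annotated to them alone among the 28939 probe sets tested: all 6 pericentral genes and the periportal genes Hal and Arg1. Sds and Gls2 are not analysed here. Where a gene had more than 1 probe set, the one with the highest mean over all 9 arrays was used, which concerned Glul only.

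RNA of whole liver was measured on 9 arrays, 3 per genotype, from male mice of the C57/BL6 background aged 8 to 9 weeks on standard chow. The groups were wild type, NEMOΔhepa (a knockout of NEMO in hepatocytes, called the NEMO knockout) and the cross of NEMOΔhepa with constitutive p21-/- mice, labelled as NEMO and p21 double knockout. NEMO is the regulatory subunit of the kinase complex that activates NF-κB, and p21 is an inhibitor of cyclin-dependent kinases. What drives the deletion in hepatocytes is not given in the sources used here, and there was no group lacking p21 alone. The labels do not say that replicates are separate animals other than by separate identifiers, so p-values measure the spread between these samples.

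Hepatocytes along the lobule divide their work. Endothelial cells of the central vein release Wnt ligands and R-spondins, and β-catenin signalling in the nearest hepatocytes keeps on genes such as Glul, Axin2, Lgr5 and Tbx3. Periportal hepatocytes make urea and glucose from amino acids, and pericentral hepatocytes catch the ammonium that escapes them and bind it into glutamine. A mean over whole liver does not show in which zone an RNA lies, and in these bulk samples fewer cells of a zone and less RNA per cell cannot be told apart.

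The targeted gene Ikbkg, which encodes NEMO, was lower than wild type in the NEMO knockout by -0.52 ± 0.11 (log2 difference ± SE; limma adjusted p = 0.0184), and in the third group by -0.60 ± 0.11 (adjusted p = 0.00835). The only probe set for Cdkn1a, which encodes p21 and shares that probe set with 4930567H12Rik, read 8.67 in wild type, 10.10 in NEMO knockout livers and 10.78 in the third group (mean log2 values). In the arrays labelled as lacking p21 it was higher than wild type (2.11 ± 0.45, limma adjusted p = 0.0194), so that group is called the labelled double knockout, and each direction given for it rests on the label. NEMO knockout replicate 1 lay away from the rest of its group on the second principal component, and had the lowest array weight (0.412). Labelled double knockout replicate 1 also lay apart from its group on that component (23.57, against 3.178 and 8.769). The 10 hepatocyte marker genes, among them Alb, Ttr and Hnf4a, averaged 13.12 to 13.19 on the 9 arrays (log2), and limma called none of them in any of the 3 comparisons (none at an unadjusted p under 0.05 either).

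Relative to wild type, 1 pericentral gene, Glul, and 1 periportal gene, Hal, were called lower in both knockout groups, and no member was called higher in either. In the NEMO knockout 2 of the 8 members were called lower at an adjusted p under 0.05, where 7.68% of all probe sets tested were called, 2.02% lower and 5.66% higher. At an unadjusted p under 0.05 there were 3 members, 1 of them higher (Rhbg), beside 20.3% of all probe sets. Glul and Hal were lower without overlap of the groups, as were 11.8% of all probe sets, with 11.4% higher and 23.2% in either direction. In the labelled double knockout 2 of 8 were called lower, where 9.32% of all probe sets were called, 3.51% lower and 5.81% higher. An unadjusted p under 0.05 was found for 5 members, beside 21.0% of all probe sets. Glul, Hal and Tbx3 were lower without overlap, as were 13.5% of all probe sets, with 11.6% higher and 25.1% in either direction. Between the knockout groups limma called none of the 8, where 0.197% of all probe sets were called, 0.0864% higher and 0.111% lower, and 4 of the 8 had an unadjusted p under 0.05, beside 7.46% of all probe sets. Members were described over all 8 and were not tested as a list.

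**Figure D1:**
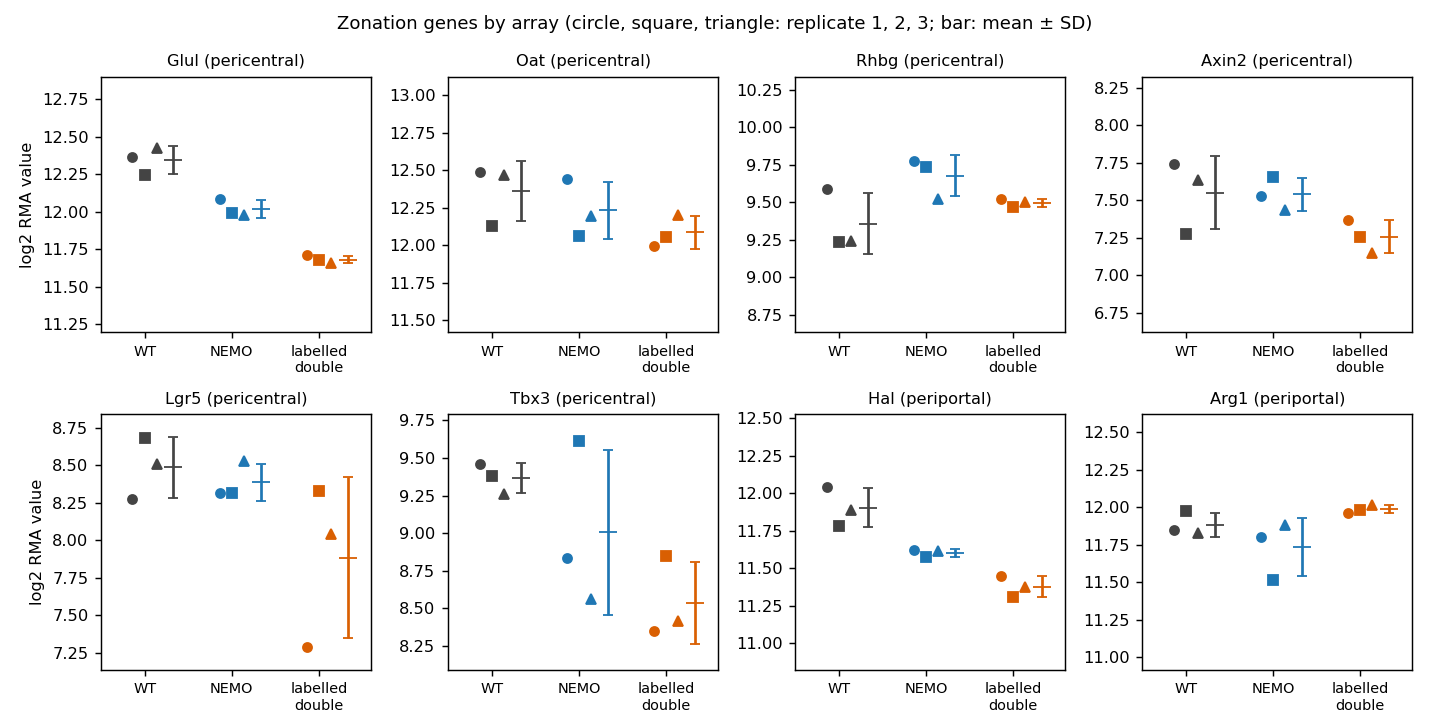
Log2 RMA values of the 8 measured zonation genes on each array, with the mean and SD of 3 arrays beside the points. Vertical axes have the same length in log2 units in every panel, but each is centred on its own gene. WT is wild type, NEMO the NEMO knockout, and labelled double the labelled double knockout. The 3 groups do not overlap for Glul and Hal, Tbx3 spreads from 8.56 to 9.62 in the NEMO knockout, and Lgr5 has a single low array at 7.29 in the labelled double knockout.

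Glul, glutamine synthetase, joins ammonium to glutamate in the hepatocytes that line the central vein. Its log2 values were 12.37, 12.24 and 12.42 in wild type, 12.09, 11.99 and 11.98 in the NEMO knockout, and 11.71, 11.68 and 11.66 in the labelled double knockout. The 3 groups did not overlap: every NEMO knockout array lay below every wild type array, and every labelled double knockout array below both. Glul fell by 0.33 ± 0.07 on the log2 scale in the NEMO knockout, to 79.7% of wild type (adjusted p = 0.0174). In the labelled double knockout it fell by 0.66 ± 0.07, to 63.1% of wild type (adjusted p = 0.000494). The difference between the knockout groups was -0.34 ± 0.07, with a 95% interval from -0.49 to -0.18, and did not pass (adjusted p = 0.126). That last comparison passed when the spread was modelled with a trend on the mean level (adjusted p = 0.0422). Leaving out wild type replicate 1, wild type replicate 3, NEMO knockout replicate 2 or NEMO knockout replicate 3 ended the first of these calls (adjusted p = 0.0606, 0.0657, 0.0603 and 0.068). Without NEMO knockout replicate 1 the difference was -0.36 (adjusted p = 0.0184).

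Glul had a second, dimmer probe set, which gave the same calls. It read 12.21, 12.07 and 12.26 in wild type, 11.92, 11.76 and 11.65 in NEMO knockout livers and 11.59, 11.56 and 11.41 in the labelled double knockout. The groups were again separate. Its differences from wild type were -0.40 ± 0.09 (adjusted p = 0.0237) and -0.67 ± 0.09 (adjusted p = 0.00184), and that between the knockout groups was -0.26 ± 0.09 (adjusted p = 0.528). By its identifier this dimmer set sits between sets for Teddm1a and Zfp648, which like Glul lie on chromosome 1. The brighter set sits between sets for C1d and Spred2 on chromosome 11, so what it detects besides Glul is uncertain.

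The 250 bases before the start of Glul in RefSeq (build GRCm38.p6, chr1:153899679-153899928, plus strand) are shown because this gene had the lowest adjusted p of the members. They were searched on both strands for CTTTGA, a core of the TCF/LEF motif through which β-catenin acts, whose reverse complement is TCAAAG. These letters are not in this window, and so nothing is in capitals. Of 32851 promoter windows of this length in the table, 13.8% hold them.

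Glul: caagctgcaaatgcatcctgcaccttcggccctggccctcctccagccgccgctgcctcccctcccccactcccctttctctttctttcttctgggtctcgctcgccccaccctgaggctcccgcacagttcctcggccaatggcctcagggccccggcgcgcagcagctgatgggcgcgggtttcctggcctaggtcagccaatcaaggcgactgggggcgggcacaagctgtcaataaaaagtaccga

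Oat, ornithine aminotransferase, turns ornithine toward glutamate in the same pericentral cells. It read 12.49, 12.13 and 12.46 in wild type, 12.44, 12.06 and 12.20 in the NEMO knockout, and 11.996, 12.06 and 12.20 in the labelled double knockout. The groups overlapped, and wild type replicate 2 lay within the range of the knockout arrays. Differences from wild type were -0.13 ± 0.12 (adjusted p = 0.62) and -0.28 ± 0.12 (95% interval -0.56 to 0.0033; adjusted p = 0.245). Neither passed, and the first ran from -0.24 without wild type replicate 2 to -0.04 without NEMO knockout replicate 2.

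Rhbg, a membrane channel for ammonium and ammonia, was the only pericentral member with a positive difference from wild type in both knockout groups. Its values were 9.59, 9.24 and 9.24 in wild type, 9.77, 9.73 and 9.52 in NEMO knockout livers and 9.52, 9.47 and 9.50 in the labelled double knockout. Wild type replicate 1 was the highest of its group, above the labelled double knockout and within the NEMO knockout. The differences from wild type were 0.32 ± 0.11 (95% interval 0.08 to 0.56; adjusted p = 0.118) and 0.14 ± 0.11 (adjusted p = 0.545). The first passed only without wild type replicate 1 among the single arrays left out (0.44, adjusted p = 0.0264). The second ran from 0.08 without wild type replicate 2 to 0.26 without replicate 1.

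Axin2, Lgr5 and Tbx3 are targets of Wnt and β-catenin signalling. Axin2, a scaffold of the complex that destroys β-catenin and a feedback inhibitor, read 7.74, 7.28 and 7.64 in wild type, 7.53, 7.66 and 7.43 in NEMO knockout livers and 7.37, 7.26 and 7.15 in the labelled double knockout. Wild type replicate 2 sat among the labelled double knockout arrays. Axin2 differed from wild type by -0.01 ± 0.12 in the NEMO knockout (95% interval -0.28 to 0.26; adjusted p = 0.974) and by -0.29 ± 0.12 in the labelled double knockout (adjusted p = 0.201). The second difference passed without wild type replicate 2 (-0.43, adjusted p = 0.0337). The sign of the first turned under cyclic loess (0.00873) and when replicate 1 or 3 of wild type, or 3 of the NEMO knockout, was left out (0.08, 0.03 and 0.04).

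Lgr5, the R-spondin receptor that strengthens Wnt signalling, read 8.27, 8.68 and 8.51 in wild type, 8.31, 8.32 and 8.52 in NEMO knockout livers and 7.29, 8.33 and 8.04 in the labelled double knockout. Replicate 1 of the last group was the lowest of the 9 arrays, and replicate 2 lay within the other groups. Lgr5 differed from wild type by -0.10 ± 0.23 (adjusted p = 0.855) and -0.60 ± 0.23 (adjusted p = 0.161), and without labelled double knockout replicate 1 the second was -0.30. The first ran from -0.21 to -0.0046 over the arrays dropped in turn (without wild type replicates 1 and 2). Its intervals were wide, from -1.12 to -0.09 for the second.

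Tbx3, a T-box transcription factor, read 9.46, 9.38 and 9.26 in wild type, 8.84, 9.62 and 8.56 in NEMO knockout livers and 8.35, 8.84 and 8.41 in the labelled double knockout. NEMO knockout replicate 2 was the highest of the 9 arrays while replicates 1 and 3 were below all of wild type. The labelled double knockout did not overlap wild type. Tbx3 had the largest difference of the members there, -0.83 ± 0.24 or 56.2% of wild type, which did not pass (95% interval -1.37 to -0.29; adjusted p = 0.0642). It passed with arrays centred on their median (-0.90, adjusted p = 0.0451), in a fit of only the 2 groups (adjusted p = 0.0172), without dim probe sets (adjusted p = 0.0421) and when the shared estimate of spread was made without NEMO knockout replicate 2 or without replicate 3 (adjusted p = 0.00932 and 0.0427). In the NEMO knockout Tbx3 was at -0.36 ± 0.24 (adjusted p = 0.454), at -0.67 without its replicate 2 (adjusted p = 0.0482) and at -0.14 without its replicate 3 (adjusted p = 0.838).

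Hal, histidine ammonia-lyase, takes the amino group off histidine in periportal hepatocytes. It read 12.04, 11.78 and 11.89 in wild type, 11.62, 11.57 and 11.62 in NEMO knockout livers and 11.45, 11.31 and 11.38 in the labelled double knockout. As for Glul, the 3 groups did not overlap and lay in the order wild type, NEMO knockout, labelled double knockout. Hal fell by 0.30 ± 0.08 on the log2 scale in the NEMO knockout, to 81.2% of wild type (adjusted p = 0.047), and by 0.53 ± 0.08 in the labelled double knockout, to 69.4% (adjusted p = 0.00293). The knockout groups differed by -0.23 ± 0.08, which did not pass (95% interval -0.40 to -0.05; adjusted p = 0.537). The call in the NEMO knockout lay close to the threshold. It held without wild type replicate 2 and ended without each of the other 8 arrays in turn (highest adjusted p = 0.138, without wild type replicate 1), under renewed quantile normalisation (0.0667) and under cyclic loess (0.0651).

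The 250 bases before Hal (RefSeq, GRCm38.p6, chr10:93488518-93488767, plus strand) are shown beside those of Glul because both genes were called lower. They hold the letters CTTTGA once, from 199 to 194 bases before the start on the strand of the gene (capitals). Of the 10 members, 4 had an entry in the promoter table (Glul, Oat, Axin2 and Hal), and Hal was the only one with a match. A match of these letters is not evidence of binding.

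Hal: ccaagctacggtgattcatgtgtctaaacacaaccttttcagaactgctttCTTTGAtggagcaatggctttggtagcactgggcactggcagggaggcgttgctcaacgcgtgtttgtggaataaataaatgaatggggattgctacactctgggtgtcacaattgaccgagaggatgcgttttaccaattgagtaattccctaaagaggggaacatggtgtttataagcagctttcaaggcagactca

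Arg1, arginase 1, releases urea from arginine as the last step of the urea cycle. Its values were 11.85, 11.97 and 11.83 in wild type, 11.80, 11.52 and 11.89 in the NEMO knockout, and 11.96, 11.98 and 12.02 in the labelled double knockout. The labelled double knockout lay above every NEMO knockout array and overlapped wild type. Differences from wild type were -0.15 ± 0.09 (adjusted p = 0.435) and 0.10 ± 0.09 (adjusted p = 0.629), and the labelled double knockout was 0.25 ± 0.09 above the NEMO knockout (95% interval 0.04 to 0.47; adjusted p = 0.586). None passed. The first was -0.04 without NEMO knockout replicate 2 and -0.22 without replicate 3. Macrophages can also make Arg1. Of 10 macrophage and monocyte markers, 7 were called higher than wild type in each knockout group, and all 10 had positive differences. Over all probe sets 5.66% and 5.81% were called higher. The macrophage and monocyte list averaged 7.81 to 7.87 in wild type, 8.54 to 8.79 in NEMO knockout livers and 8.55 to 8.70 in the labelled double knockout (log2). The part of these cells in the Arg1 values was not tested.

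**Figure D2:**
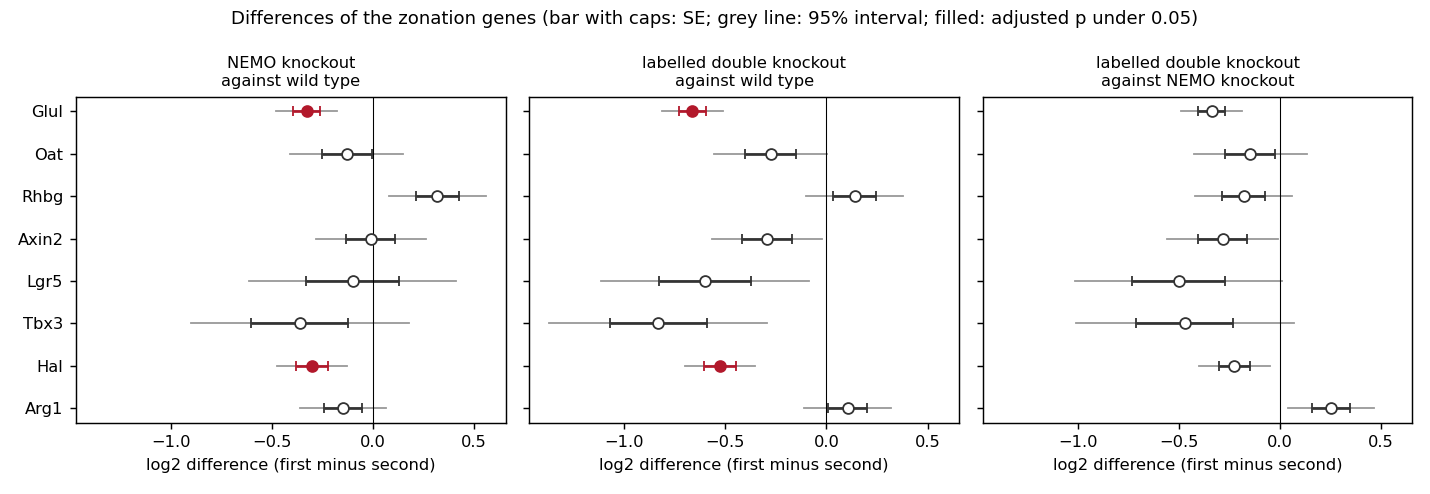
Log2 difference of each measured zonation gene in the 3 comparisons, first group minus second (point, difference; capped bar, SE; grey line, 95% interval; filled point, adjusted p under 0.05). Glul and Hal are filled in both comparisons with wild type, and no gene is filled between the knockout groups.

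Set side by side, the average of the pericentral genes was lowest in the labelled double knockout, and the average of Hal and Arg1 was below wild type in both knockout groups. Each value was taken as its deviation from that gene's wild type mean and averaged over genes for each array. For the 6 pericentral genes the mean was -0.10 ± 0.10 (log2, SD, n = 3) in the NEMO knockout, against -0.42 ± 0.12 for labelled double knockout arrays. The 3 labelled double knockout arrays (-0.54, -0.31 and -0.42) were below the 3 NEMO knockout arrays (-0.08, -0.02 and -0.21). The NEMO knockout arrays overlapped wild type (0.08, -0.09 and 0.01). For Hal and Arg1 the means were -0.23 ± 0.11 and -0.21 ± 0.03. There the knockout groups overlapped each other, and every array of both lay below every wild type array. These averages rest on 6 genes against 2 and were not tested. Hal and Arg1 did not move alike: in the labelled double knockout Hal was at -0.53 from wild type and Arg1 at 0.10. The lower average of the 2 genes there is thus that of Hal alone. The median difference over the 8 members was -0.14 in NEMO knockout livers and -0.41 in the labelled double knockout, beside -0.04 and -0.03 over all probe sets. Between the knockout groups 4 members were lower without overlap (Glul, Rhbg, Axin2 and Hal) and 1 higher (Arg1), where 5.75% and 4.99% of all probe sets were so (10.7% in either direction). For Rhbg the groups barely parted: the highest labelled double knockout array read 9.5196 and the lowest NEMO knockout array 9.5202. The comparisons share arrays, so they are not independent of each other.

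**Figure D3:**
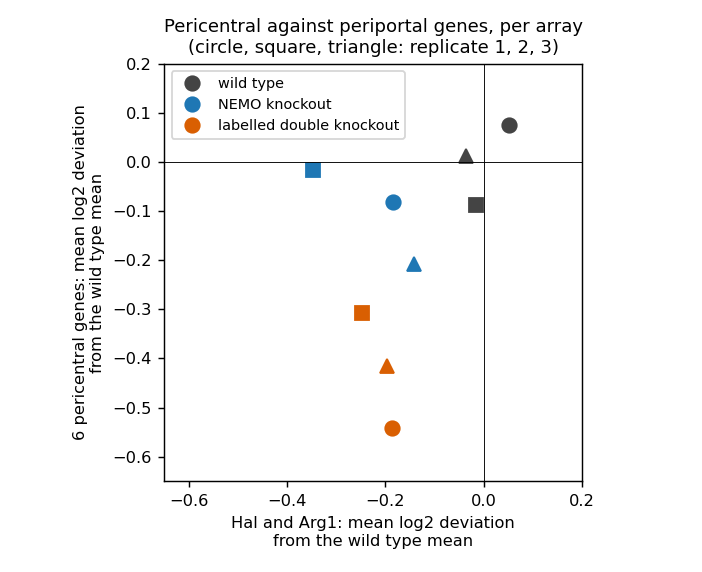
Each point is 1 array: mean log2 deviation from the wild type mean for Hal and Arg1 (horizontal) and for the 6 pericentral genes (vertical), with both axes to the same scale. The labelled double knockout arrays lie lowest, from -0.31 to -0.54 on the vertical axis, and the NEMO knockout arrays between -0.02 and -0.21.

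Other genes of the pericentral zone did not all go the same way. Of 15 measured, 3 were called lower and 1 higher in the NEMO knockout, and 4 lower and 2 higher in the labelled double knockout (median difference -0.15 and -0.18). Over all probe sets, 2.02% were called lower and 5.66% higher in the NEMO knockout. In the labelled double knockout 3.51% were called lower and 5.81% higher. The count of 3 was 1 when wild type replicate 1, 2 or 3 or replicate 2 or 3 of the NEMO knockout was dropped, and 6 with median-centred arrays. The count of 4 was 2 when wild type replicate 1 or labelled double knockout replicate 2 or 3 was dropped, and 1 when wild type replicate 3 was. Cyp2c37, a cytochrome P450, read 11.89, 11.73 and 11.80 in wild type, 10.67, 9.82 and 9.86 in NEMO knockout livers and 10.45, 10.70 and 10.10 in the labelled double knockout. It fell by 1.69 ± 0.22 and 1.39 ± 0.22 on the log2 scale (adjusted p = 0.00199 and 0.00455). Slc1a2, a glutamate carrier that supplies the cells with glutamine synthetase, fell by 0.81 ± 0.18 and 0.89 ± 0.18 (adjusted p = 0.0246 and 0.0142). Its differences changed little when 1 array was dropped, while its adjusted p moved past the threshold. The first call ended on dropping wild type replicate 1, 2 or 3 or replicate 2 or 3 of the NEMO knockout (differences -0.87 to -0.67, adjusted p up to 0.0919), and the second on dropping wild type replicate 3 (-0.85, adjusted p = 0.0581).

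Cyp2c50 fell by 0.50 ± 0.12 in the NEMO knockout (adjusted p = 0.0287). The adjusted p was up to 0.111 without an array of the 2 groups compared, where the call held only without NEMO knockout replicate 1. Nor did it hold in a fit of only the 2 groups (adjusted p = 0.0531) or with control rows kept (0.0519). The dicarboxylate carrier Slc13a3 rose by 0.68 ± 0.11 and 0.65 ± 0.11 (adjusted p = 0.00529 and 0.00552), and the ecto-nucleotidase Nt5e by 0.90 ± 0.17 in the labelled double knockout (adjusted p = 0.00956). The other 2 genes lower there, Cyp27a1 (-0.34, adjusted p = 0.0417) and Akr1c6 (-0.26, adjusted p = 0.0322), were named after their values were seen. Of the 15, none was called by limma between the knockout groups. At an unadjusted p under 0.05 there were 3, beside 7.46% of all probe sets. Gulo (-0.20 ± 0.06, adjusted p = 0.345) and Akr1c6 (-0.18 ± 0.06, adjusted p = 0.542) had the smallest p-values.

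Of 16 other periportal genes measured, 2 were called higher and none lower in each knockout group (unadjusted p under 0.05 in the lower direction for 1 and 2). Over all probe sets, 5.66% and 5.81% were called higher, and 2.02% and 3.51% lower. The 2 called higher were Apoa4, an apolipoprotein, at 1.68 ± 0.20 and 1.30 ± 0.20, and the aldehyde dehydrogenase Aldh1b1, at 1.33 ± 0.13 and 1.26 ± 0.13 above wild type (adjusted p from 0.000529 to 0.00423). The median differences of this list were 0.06 and 0.03. A single gene was called lower in each with median-centred arrays, and also in the NEMO knockout when labelled double knockout replicate 2 was dropped, and in the labelled double knockout when its replicate 1 was. In the comparison of the knockout groups none was called and 1 had an unadjusted p under 0.05, Hsd17b6 (-0.56 ± 0.20, adjusted p = 0.542), followed by Cdh1 (-0.24 ± 0.12, adjusted p = 0.698).

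The measured enzymes of histidine and serine breakdown all had negative differences from wild type. The list of histidine and serine degradation counts Hal, and shares Uroc1 and Gldc with the other periportal genes. All 7 measured genes had a mean below that of wild type in each knockout group. The median differences were -0.30 and -0.37, beside -0.04 and -0.03 over all probe sets. Arrays of each knockout group overlapped those of wild type for Amdhd1, Shmt1 and Uroc1, which are named for this overlap. Uroc1 averaged 10.95 in the labelled double knockout, against 10.98 in wild type. The share of all probe sets with a negative difference is not given here. Of the 7, 3 were called lower and none higher in each, where 2.02% and 3.51% of all probe sets were called lower. Besides Hal these were Ftcd, which takes the formimino group at the end of histidine breakdown (-0.36 ± 0.08 and -0.33 ± 0.08, adjusted p = 0.0238 and 0.0307), and serine racemase, Srr (-0.31 ± 0.06 and -0.37 ± 0.06, adjusted p = 0.0162 and 0.00589). In the NEMO knockout no gene of the list was called without wild type replicate 1 or 3, and 1 was called without any one array of the NEMO knockout. In the labelled double knockout Ftcd no longer passed without wild type replicate 1, wild type replicate 3 or any array of that group (adjusted p from 0.0784 to 0.106). None of the 7 was called between the knockout groups and 1, Hal, had an unadjusted p under 0.05, with Srr next (-0.06 ± 0.06).

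None of 7 measured genes of the urea cycle and its carriers, which count Arg1, was called by limma in any comparison (unadjusted p under 0.05 for 0, 2 and 1). Over all probe sets, 7.68%, 9.32% and 0.197% were called (unadjusted p under 0.05 for 20.3%, 21.0% and 7.46%). Otc, which makes citrulline, had the smallest p of that list in both comparisons with wild type (-0.16 ± 0.08, adjusted p = 0.307, and -0.28 ± 0.08, adjusted p = 0.0572). The second passed without labelled double knockout replicate 1 (-0.35, adjusted p = 0.0344) with median-centred arrays (-0.35, adjusted p = 0.0196), a trend (0.0292), array weights (0.0267) and without dim probe sets (0.0333). Cps1, the entry enzyme of the cycle, was at 0.16 ± 0.06 in the labelled double knockout (adjusted p = 0.178; 0.0362 with a trend).

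Of 13 measured genes that handle glutamine, glutamate and ammonium, which count Glul, Oat and Rhbg, 2 were called lower (Glul and Slc1a2) and 1 higher in each knockout group. Over all probe sets, 2.02% and 3.51% were called lower, and 5.66% and 5.81% higher. Neither lower call in the NEMO knockout held when wild type replicates 1 or 3, or replicates 2 or 3 of the NEMO knockout, were dropped in turn, and 1 did when wild type replicate 2 was. The higher one was Aldh18a1, which starts proline and ornithine synthesis from glutamate. It read 6.27, 6.49 and 6.26 in wild type, 7.04, 7.39 and 7.40 in NEMO knockout livers and 6.83, 7.03 and 6.70 in the labelled double knockout, without overlap. It rose by 0.94 ± 0.12 (adjusted p = 0.00184) and by 0.52 ± 0.12 (adjusted p = 0.0284). The second did not pass when replicates 1 or 3 of wild type, or 1 or 2 of the labelled double knockout, were left out in turn (adjusted p from 0.0732 to 0.0999) with median-centred arrays (0.0578) and with control rows kept (0.05002). None of the 13 was called by limma between the knockout groups. Of them, 3 had an unadjusted p under 0.05, beside 7.46% of all probe sets.

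**Figure D4:**
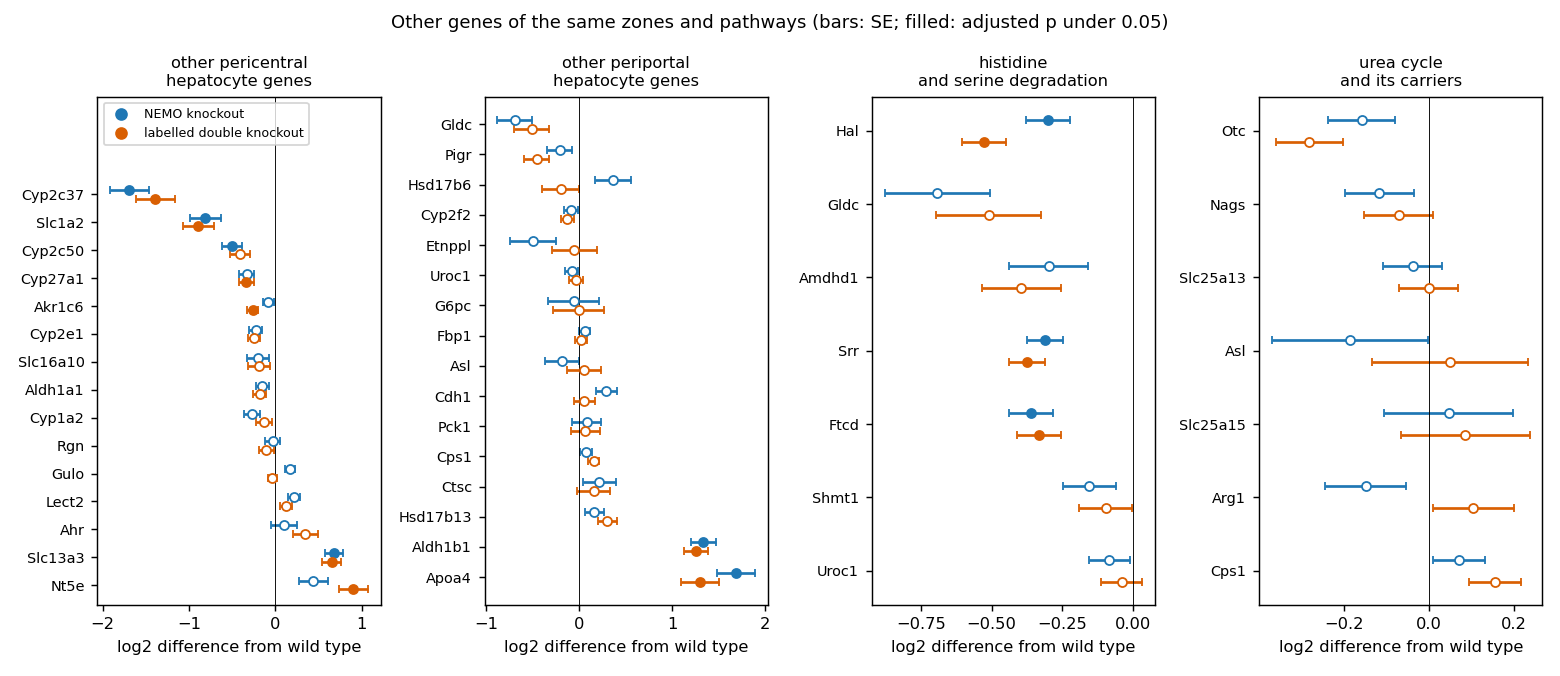
Log2 difference from wild type of other genes of the same zones and pathways in the NEMO knockout (blue) and the labelled double knockout (orange), with SE; filled points have an adjusted p under 0.05, and each panel has its own horizontal range. All 7 histidine and serine degradation genes lie below 0 in both groups, and no urea cycle gene is filled.

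Most signals and receptors that keep the pericentral programme on were not called, as held for most probe sets. Over all probe sets 7.68% were called in the NEMO knockout, 9.32% in the labelled double knockout and 0.197% between the knockout groups. Among 13 Wnt ligands, R-spondins and proteins of Wnt release, 1 was called higher and 1 lower in each knockout group: Wls, which carries Wnt proteins to the cell surface (0.92 ± 0.12 and 0.64 ± 0.12, adjusted p = 0.00186 and 0.00974), and Porcn, which adds their lipid (-0.51 ± 0.09 and -0.62 ± 0.09, adjusted p = 0.00839 and 0.00276). A further ligand-list gene was called lower in the labelled double knockout when its replicate 1 was dropped. Between the knockout groups none was called and 2 had an unadjusted p under 0.05, Wnt2, a ligand made by liver endothelial cells (-0.31 ± 0.09, adjusted p = 0.406), and Wls (-0.28 ± 0.12, adjusted p = 0.654). None of 22 receptors, destruction complex members and transcription factors, which count Axin2 and Lgr5, was called by limma in any comparison. An unadjusted p under 0.05 was found for 6, 6 and 1, beside 20.3%, 21.0% and 7.46% of all probe sets. In the labelled double knockout 2 of the 22 were called lower when wild type replicate 2 was dropped. The smallest p-values were those of Fzd1 (0.29 ± 0.09, adjusted p = 0.103) and Fzd5 (-0.27 ± 0.09, adjusted p = 0.113) in NEMO knockout livers and Dvl2 (0.19 ± 0.06, adjusted p = 0.0999) and Lgr4 (-0.27 ± 0.10, adjusted p = 0.128) in the labelled double knockout. Fzd1 passed under cyclic loess (adjusted p = 0.0391) and Fzd5 with median-centred arrays (0.0474) and under renewed quantile normalisation (0.047).

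Of 17 Wnt feedback inhibitors and target genes, which count Axin2, Lgr5 and Tbx3, 2 were called higher and none lower in each knockout group. Over all probe sets, 5.66% and 5.81% were called higher, and 2.02% and 3.51% lower. The 2 called higher were cyclin D1, Ccnd1, which drives entry into the cell cycle (1.996 ± 0.22 and 1.43 ± 0.22, adjusted p = 0.000881 and 0.00357), and Dkk3 (0.69 ± 0.10 and 0.57 ± 0.10, adjusted p = 0.00301 and 0.0072). At an unadjusted p under 0.05, none of the 17 was lower and 3 were higher in NEMO knockout livers, beside 20.3% of all probe sets in either direction. In the labelled double knockout 6 were lower and 3 higher, beside 21.0% in either direction. The lower ones include the members Axin2, Lgr5 and Tbx3, whose values are given above. In that group 1 gene was called lower with median-centred arrays. The same held when replicate 2 of wild type, 3 of the NEMO knockout or 2 of the labelled double knockout was dropped. Without NEMO knockout replicate 2, 2 genes were called lower there. Between the knockout groups none was called. At an unadjusted p under 0.05, 5 were lower and 1 higher, beside 7.46% of all probe sets in either direction. The smallest p-values there were those of Tnfrsf19 (-0.58 ± 0.12, adjusted p = 0.144; 0.0281 without NEMO knockout replicate 2) and Rnf43, an enzyme that removes Wnt receptors (-0.45 ± 0.15, adjusted p = 0.5).

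Markers of some other cell types were called higher in the knockout groups than in wild type. Besides macrophage markers, 7 of 10 stellate cell markers were called higher in each knockout group, and 4 and 3 of 8 cholangiocyte markers. Over all probe sets 5.66% and 5.81% were called higher. Differences from wild type were positive for 10 and 9 stellate markers and for all 8 cholangiocyte markers in each. The cholangiocyte list averaged 6.72 to 6.86 in wild type, 7.27 to 7.60 in NEMO knockout livers and 7.15 to 7.59 in the labelled double knockout. The cholangiocyte counts were 2 and 1 when wild type replicate 1 or replicate 2 was dropped, 1 and 1 when wild type replicate 3 was, and the first was 1 when NEMO knockout replicate 3 was. The stellate list averaged 8.23 to 8.30, 9.06 to 9.29 and 9.05 to 9.23 in the same order. Of 10 endothelial markers none was called in the NEMO knockout (2 at an unadjusted p under 0.05) and 1 was called higher in the labelled double knockout, with list means of 8.58 to 8.78, 8.70 to 8.91 and 8.71 to 9.00. The endothelial counts ranged from 0 to 1 and from 0 to 2 over the single arrays dropped. Between the knockout groups no marker of these lists was called by limma (1 endothelial and 1 stellate marker at an unadjusted p under 0.05). The part of these cells in the zonation values was not tested.

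Among 19982 genes with a probe set of their own, those with a pattern most like Glul were Ntn3, Itih1 and Hagh, by the root mean square difference of values centred on each gene's mean over the 9 arrays (0.0673, 0.0801 and 0.0861 on the log2 scale). Those most like Hal were Mocos, Hagh and Ldhd (0.0475, 0.0487 and 0.051). Hagh was on both lists, at -0.33 in NEMO knockout livers and -0.51 in the labelled double knockout relative to wild type. These genes were chosen for likeness, so their differences are a description.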

How the data were processed

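RNA of mouse liver was measured on 9 single-channel Affymetrix arrays. The values deposited by the authors are log2 expression levels for each array and probe set, made with RMA per the submitters' processing notes; the log base was taken from RMA and the range of the values. RMA draws all arrays toward 1 distribution. The genome build, filters and software versions behind them are not given in the sources used. Of 35556 rows, 6617 with identifiers below the first annotated one were taken to be controls and left out.

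A linear model with a mean for each genotype was fitted to the 9 arrays together in limma 3.58.1 (R 4.3.3), and Benjamini-Hochberg adjustment ran over 28939 probe sets. The fit was tested on simulated data. Calls are probe sets with adjusted p under 0.05. Errors are standard errors (SE) unless marked SD. Precision is limited by the small number of arrays, which have no read depth.

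Members, gene lists and tests were chosen with earlier results of these data known. The zone of a list gene is general knowledge and was not measured. Named genes are the members, Ikbkg and Cdkn1a, up to 4 called genes per list and comparison with the largest change (otherwise the 2 with the smallest p), and the 3 genes most like each called member; exceptions are marked. Sequences are from RefSeq, build GRCm38.p6. Alternatives were a replicate block, 3 normalisations, a trend, array weights, 2-group fits, a filter on dim probe sets, control rows kept, and each array left out.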

Additional observations from a re-analysis of the deposited data

How the results depend on the processing

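Of 435 values of member differences under alternatives, 404 kept direction and side of the threshold, 17 lost a call, 10 gained one and 4 turned sign, all 4 for Axin2 in the NEMO knockout (0.00873 under cyclic loess, and from -0.148 to 0.0838 with arrays left out). The calls of Glul and Hal in the labelled double knockout held under every alternative run. Same-numbered replicates deviated together (r over 0.1) in 3 of 9 pairs, so the numbers were not taken to pair the samples. Between the knockout groups r was positive for each number (0.391, 0.0826 and 0.247), and with wild type it ran from -0.116 to 0.18. Whether the knockout groups share a factor by number was not tested. With the replicate block, 2318, 2775 and 18 probe sets were called in the NEMO knockout, in the labelled double knockout and between the knockout groups, against 2222, 2696 and 57, and 2 pericentral genes instead of 1 in the labelled double knockout (Tbx3, adjusted p = 0.0258). Between the knockout groups, 31 were called with median centring, 23 with only the 2 groups and 28 with control rows kept. With arrays left out, counts ran from 1382 to 2335, 1601 to 2720 and 10 to 44. Median centring moved the share of higher calls from 73.7% to 52.7% and from 62.3% to 44.1%. Pericentral calls in the labelled double knockout were 2 with median centring, with only the 2 groups and without dim probe sets, and 1 to 2 with arrays left out. In the NEMO knockout they were 0 with only the 2 groups and 0 to 1 with arrays left out; between the knockout groups 1 was called with a trend. Periportal calls in the NEMO knockout were 0 under renewed quantile normalisation, cyclic loess, only the 2 groups and control rows kept, and 0 to 1 with arrays left out. The cause of these shifts was not tested.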
